A study of Mus musculus with 18 samples.

Results

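The proapoptotic side of the BCL2 family was followed in small cell lung cancer (SCLC) cells in which p53 was switched back on. Its members were taken by gene symbol from the expression table, as the 2 effectors Bax and Bak1 and the 8 BH3-only genes Bbc3, Bid, Bcl2l11, Pmaip1, Bad, Bmf, Bik and Hrk. All 10 were among the 25239 genes of the table, and 8 of them reached 1 TPM (the deposited unit of transcript level, scaled by transcript length and to the same sum in each sample) in at least 3 samples and were tested with the 12828 genes that did so.

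The effectors, once activated, form pores in the mitochondrial outer membrane, from which cytochrome c escapes and starts the caspase cascade. Prosurvival relatives such as BCL-XL and MCL1 hold the effectors in check, and BH3-only proteins bind into a groove of the prosurvival proteins or activate the effectors directly. Several of the BH3-only genes and Bax are textbook transcriptional targets of p53, which links loss of p53 to resistance to cell death in many tumors.

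The samples came from 3 mouse SCLC lines that the study calls Type D (4711-1, 4711-18 and 4716-11), each derived from a tumor of a mouse SCLC model. In all of them Rb1 and Rbl2 had been deleted by a virus carrying Cre driven by the CMV promoter, which also silenced Trp53 by turning its XTR allele into a trapped form (TR). Control and Restored cells thus share the losses of Rb1 and Rbl2, while Trp53 stays trapped in Control cells alone. Each line was transduced with a guide RNA against a β-galactosidase sequence (sgBgal) or against exon 3 (sgPpia#3.2) or exon 4 (sgPpia#4.1) of Ppia, the gene for cyclophilin A, and kept as a mixed population in which cyclophilin A was lowered and not absent. Each of the 9 populations was given vehicle (Control) or 500 nM 4-OHT, which activates FlpO-ER recombinase and frees the Trp53 allele (Restored), for 72 h. This gave 6 conditions with 3 samples each, the cell line being the replicate. In the fit without the cell line as a block, p-values measure the spread between these 3 lines within conditions. That fit treats samples of the same line as independent. With the cell line as a block, they measure the spread left once differences between lines are removed. The names 4711-1 and 4711-18 share a number, and whether these lines come from the same mouse is not stated in the labels.

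The labels held in the data. Trp53 ranged from 5.45 to 8.41 TPM in Control and from 181 to 236 TPM in Restored samples, and Ppia was lower in each sgPpia population than in the sgBgal population of the same line and state. The p53 target Cdkn1a, which encodes the cell cycle inhibitor p21, ranged from 99.4 to 369 TPM in Control and from 1565 to 3806 TPM in Restored samples. Absolute depth is unknown, and relative depth spanned 1 to 1.78 times that of the shallowest sample, with medians of 1.56 in Control and 1.30 in Restored samples. Of 8 neuroendocrine markers 4 reached 1 TPM in any sample, with sums of 15.7 to 37.4 TPM, and the markers Chga and Calca were at or near 0 in all samples. The 5 epithelial markers summed to 9621 to 17737 TPM in Control and 4904 to 11683 TPM in Restored samples. Fibroblast and endothelial marker sums stayed at or below 1.51 TPM, and the leukocyte list went from 2.22 to 7.13 TPM in Control to 21.3 to 39.8 TPM in Restored samples through Cd68 alone, with Ptprc, Adgre1 and Cd3e at or near 0. The part of these marker shifts in the results was not tested. A pair of populations stood apart. The 4711-18 Control sample with sgPpia#3.2 had the lowest median correlation with other samples of its line (0.972) and the highest Control Cdkn1a (369 TPM), and the 4711-1 population with sgPpia#4.1 had the lowest Mdm2 (868 TPM) and Sesn2 (58.6 TPM) among Restored samples. The 4711-1 population was not set apart by this correlation (0.986 in Control and 0.982 in Restored cells, beside 0.982 in 4711-18 Control cells with sgBgal). Values of the called members and the guide comparisons are also given without these populations. Both were singled out at least in part by levels of p53 targets, so p53 responses without them are not an independent check.

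Promoter sequences of Bbc3, Bax and Bak1 are shown first, because the p53 response of the first 2 is among the main results below and Bak1 is the effector that did not pass the test. RefSeq windows (GRCm38.p6) running from 250 bases before to 50 bases after an annotated start were available for 8 of the 10 members, 14 windows in all. There was none for Bik or for Pmaip1, the member with the largest fold change below. They were searched for the consensus p53 site, a pair of 10-base half-sites separated by at most 13 bases, allowing at most 3 mismatches over both half-sites but none in the core C and G of either. The half-site reads the same on both strands. Such a pair was present in 3 windows of the members, 2 of Bbc3 and 1 of Bax, and in 15.6% of all 32851 windows of the table. The 250 bases before the start follow, read along the gene, with the half-sites of 1 pair in capitals, that with the fewest mismatches and, where these tied, the fewest bases between half-sites.
Bbc3 (first start, plus strand, chr7:16309333-16309582): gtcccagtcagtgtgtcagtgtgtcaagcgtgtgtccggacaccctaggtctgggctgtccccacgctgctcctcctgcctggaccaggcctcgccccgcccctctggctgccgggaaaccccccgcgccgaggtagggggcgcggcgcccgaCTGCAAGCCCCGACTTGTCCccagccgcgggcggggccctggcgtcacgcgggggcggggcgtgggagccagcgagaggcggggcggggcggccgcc
Bax (minus strand, chr7:45466899-45467148): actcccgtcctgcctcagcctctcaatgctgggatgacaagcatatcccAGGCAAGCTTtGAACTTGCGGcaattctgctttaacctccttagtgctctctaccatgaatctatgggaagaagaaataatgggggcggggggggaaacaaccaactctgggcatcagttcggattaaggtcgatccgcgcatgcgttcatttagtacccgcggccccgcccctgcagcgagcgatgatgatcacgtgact
Bak1 (minus strand, chr17:27028628-27028877, no pair): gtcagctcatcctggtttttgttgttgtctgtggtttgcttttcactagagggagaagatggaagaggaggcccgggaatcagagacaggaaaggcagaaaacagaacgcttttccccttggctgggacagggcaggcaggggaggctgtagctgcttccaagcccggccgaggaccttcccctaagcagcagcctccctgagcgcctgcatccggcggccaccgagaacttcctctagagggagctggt
With the start counted as 0, the pair of Bbc3 ran from -97 to -78 with 0 bases between its half-sites and 3 mismatches. That of Bax ran from -201 to -181 with 1 base between and 2 mismatches, and 2 other pairs lay in the same window. One of them, from -216 to -192 with 5 bases between, also had 2 mismatches and shared a half-site with the pair in capitals. G and C made up 76.4% of the printed Bbc3 bases, 54.0% of those of Bax and 58.4% of those of Bak1. A match describes the letters and does not show that p53 binds there.

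On restoration of p53, Bbc3, Pmaip1 and Bax rose with every guide, by 2.21, 2.45 and 1.34 on the log2 scale in sgBgal cells, and Bmf fell in sgBgal cells. Bad, Bak1, Bid and Bcl2l11 did not pass the test, and Bik and Hrk were too low to test. A gene was called at a Benjamini-Hochberg adjusted p under 0.05 in limma, over all genes tested, together with a log2 fold change of at least 1, on the scale of log2(TPM + 1), which understates the change of low genes. In sgBgal cells 3 of 8 tested members were called higher and 1 lower, against 5.46% and 2.17% of all genes. With sgPpia#3.2 the counts were 3 and 0, against 4.44% and 1.31%, and with sgPpia#4.1 they were 3 and 0, against 4.3% and 1.79%. With each cell line fitted as a replicate block, more genes were called higher (7.7%, 6.4% and 6.26% for the 3 guides) and lower (3.32%, 2.21% and 2.92%), and Bmf was then called lower with sgPpia#4.1. The median of all genes tested was itself shifted, by 0.19, 0.17 and 0.15 on the log2 scale for the 3 guides. After median-of-ratios rescaling, which brings that median to about 0, 479 genes were called higher and 391 lower in sgBgal cells (701 and 279 without it), 413 and 243 (570 and 168) with sgPpia#3.2, and 414 and 296 (552 and 229) with sgPpia#4.1. Calls without the block were fewer when line 4716-11 was left out, over all genes as well as the members: 2.55%, 1.54% and 1.61% of all genes were then called higher with the 3 guides. In that fit of 2 lines 1, 0 and 0 members were called, Bax with sgBgal being the one left, while in the fit with the block Bax, Bbc3 and Pmaip1 stayed called with every guide whichever line was left out. In bulk RNA, fewer cells with a transcript and less transcript per cell cannot be told apart.

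**Figure D1:**
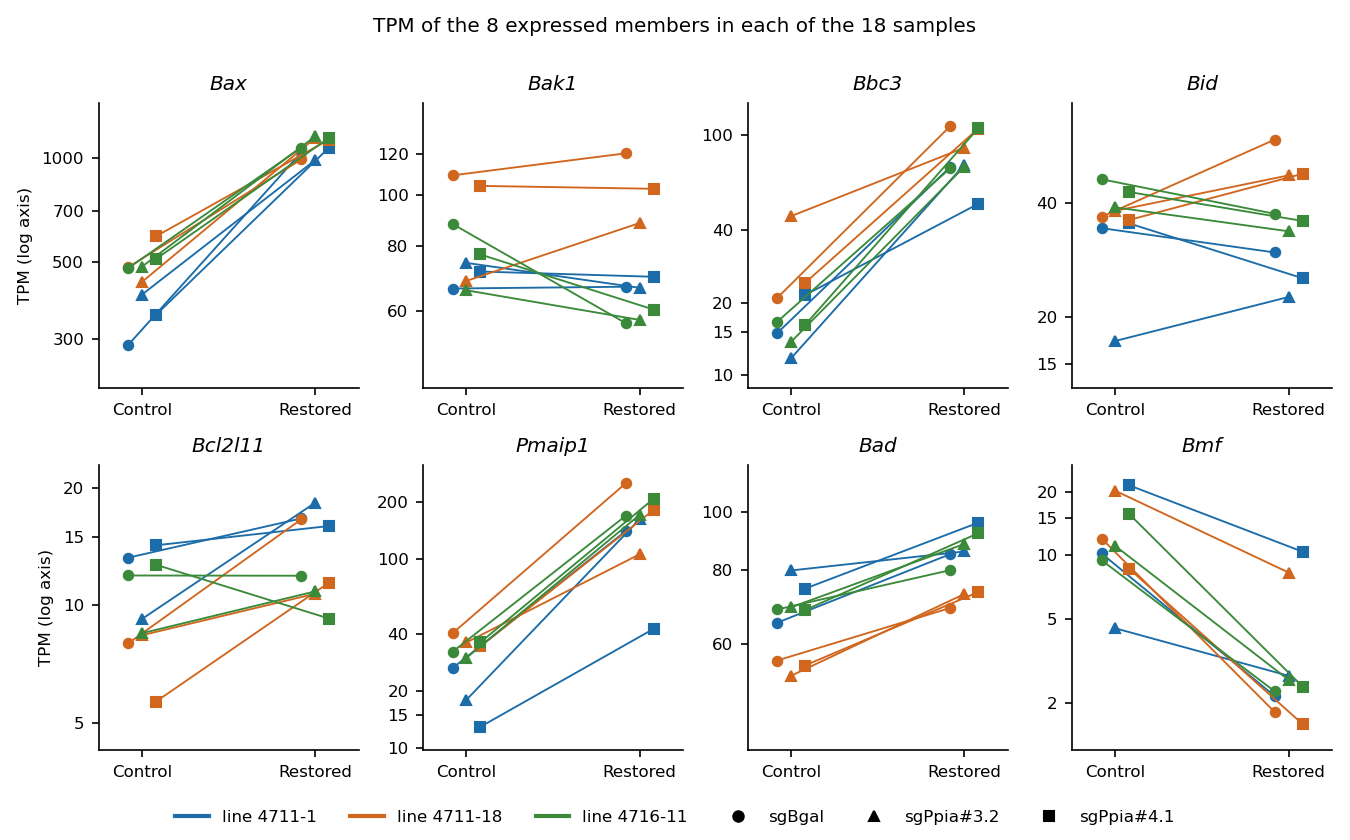
TPM (log axis, one panel per gene) of the 8 tested members in each of the 18 samples, with lines joining the Control and Restored samples of a population, colors for cell lines and symbols for guides. All 9 traces go up for Bax, Bbc3 and Pmaip1 and all 9 go down for Bmf, while those of Bid go up in 4711-18, down in 4716-11 and both ways in 4711-1.

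Bax, the cytosolic effector, was the most abundant member in every sample. In sgBgal cells its level went from 288 to 1034 TPM in 4711-1, from 482 to 988 TPM in 4711-18 and from 479 to 1069 TPM in 4716-11. With sgPpia#3.2 the corresponding levels were 402 to 983, 438 to 1139 and 484 to 1151 TPM, and with sgPpia#4.1 they were 351 to 1068, 592 to 1127 and 509 to 1139 TPM. The lowest Restored level (983 TPM) lay above the highest Control level (592 TPM), so the states did not overlap. The log2 fold change was 1.34 ± 0.21 (SE, n = 3 lines, limma adjusted p = 0.00084) with sgBgal, 1.30 ± 0.21 (adjusted p = 0.0012) with sgPpia#3.2 and 1.23 ± 0.21 (adjusted p = 0.0018) with sgPpia#4.1. Without the 4711-18 population that stood apart the value with sgPpia#3.2 was 1.27 (adjusted p = 0.0200), and without the 4711-1 population that with sgPpia#4.1 was 1.04 (adjusted p = 0.0156), just above the fold required for a call.

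The Restored levels of Bax lay closer together in TPM than its Control levels. Over the 9 Control samples the highest level was 2.06 times the lowest (coefficient of variation 20.2%), and over the 9 Restored samples 1.17 times (6.09%). After median-of-ratios rescaling these values were 2.16 times (22.9%) and 1.47 times (11.1%). The population with the lowest Control level, 4711-1 with sgBgal, had the largest ratio of Restored to Control (3.59), and the population with the highest, 4711-18 with sgPpia#4.1, had the smallest (1.90). These ratios share the Control level with the quantity they are set beside. After that rescaling the log2 fold changes of Bax were 1.12, 1.10 and 1.05 for the 3 guides, all still called. Bax ranked 550, 475 and 547 among the 12828 genes by fold change with sgBgal, sgPpia#3.2 and sgPpia#4.1.

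Bak1, the effector that resides in the mitochondrial outer membrane, was second by median level in Control samples, above Bad in 6 of 9. Restoration moved Bak1 in no common direction. In 4711-1 it went from 66.2 to 66.7 TPM with sgBgal, from 74.1 to 66.4 TPM with sgPpia#3.2 and from 71.3 to 69.7 TPM with sgPpia#4.1. In 4711-18 the levels were 109 to 120, 68.4 to 88.4 and 104 to 103 TPM in the same order of guides, and in 4716-11 they were 88.0 to 56.8, 65.6 to 57.6 and 76.9 to 60.3 TPM. All 3 populations of 4716-11 were lower in the Restored state, and the states overlapped. The log2 fold changes were -0.16, 0.01 and -0.13 (SE 0.29 for each), with 95% confidence intervals that together ran from -0.77 to 0.62. Without the 4711-18 population the value with sgPpia#3.2 was -0.17.

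Bax also took a larger share of the effector mRNA in Restored samples. It made up 81.3 to 88.1% of the summed Bax and Bak1 TPM in Control and 89.1 to 95.2% in Restored samples, and was higher in 9 of 9 populations. This share is computed from the same values as the Bax result and is not separate evidence.

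Bbc3 encodes PUMA, a BH3-only protein that binds all main prosurvival relatives and is counted here among the activators of the effectors. In sgBgal cells Bbc3 went from 14.9 to 73.8 TPM in 4711-1, from 20.9 to 109 TPM in 4711-18 and from 16.6 to 72.8 TPM in 4716-11. With sgPpia#3.2 it went from 11.7 to 75.1, from 45.9 to 88.5 and from 13.7 to 73.7 TPM in these lines, and with sgPpia#4.1 from 21.5 to 51.6, from 24.1 to 106 and from 16.1 to 107 TPM. The states did not overlap, and the nearest values were the highest Control (45.9 TPM, 4711-18 with sgPpia#3.2) and the lowest Restored (51.6 TPM, 4711-1 with sgPpia#4.1), the populations that stood apart. The log2 fold change was 2.21 ± 0.41 (SE, n = 3 lines, limma adjusted p = 0.0025) with sgBgal, 1.95 ± 0.41 (adjusted p = 0.0071) with sgPpia#3.2 and 1.99 ± 0.41 (adjusted p = 0.0058) with sgPpia#4.1. Without the 4711-18 population it was 2.46 with sgPpia#3.2 (adjusted p = 0.0013), and without the 4711-1 population it was 2.38 with sgPpia#4.1 (adjusted p = 0.0091). Bbc3 ranked 148, 172 and 161 by fold change for the 3 guides.

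Bid, which links death receptors to mitochondria once caspase-8 cleaves it, moved in opposite ways in different lines. In 4711-18 it went from 36.7 to 58.7 TPM with sgBgal, from 38.1 to 47.2 TPM with sgPpia#3.2 and from 36.0 to 47.7 TPM with sgPpia#4.1. In 4716-11 it went from 46.1 to 37.4, from 38.9 to 33.6 and from 42.7 to 35.8 TPM. In 4711-1 the levels were 34.3 to 29.6, 17.3 to 22.6 and 35.3 to 25.3 TPM, so that this line had both directions. The fitted changes were 0.05, 0.16 and -0.11 (SE 0.35), none called.

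Bcl2l11 encodes BIM, an activator that also binds the prosurvival proteins broadly. Its Control levels had a lowest value of 5.66, a median of 9.22 and a highest of 14.2 TPM, and its Restored levels 9.24, 11.9 and 18.3 TPM. It was higher after restoration in 7 of 9 populations, with both directions within 4716-11, and the states overlapped. The log2 fold changes were 0.43, 0.52 and 0.21 (SE 0.31), none called, and after rescaling they were 0.22, 0.34 and 0.05.

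**Figure D2:**
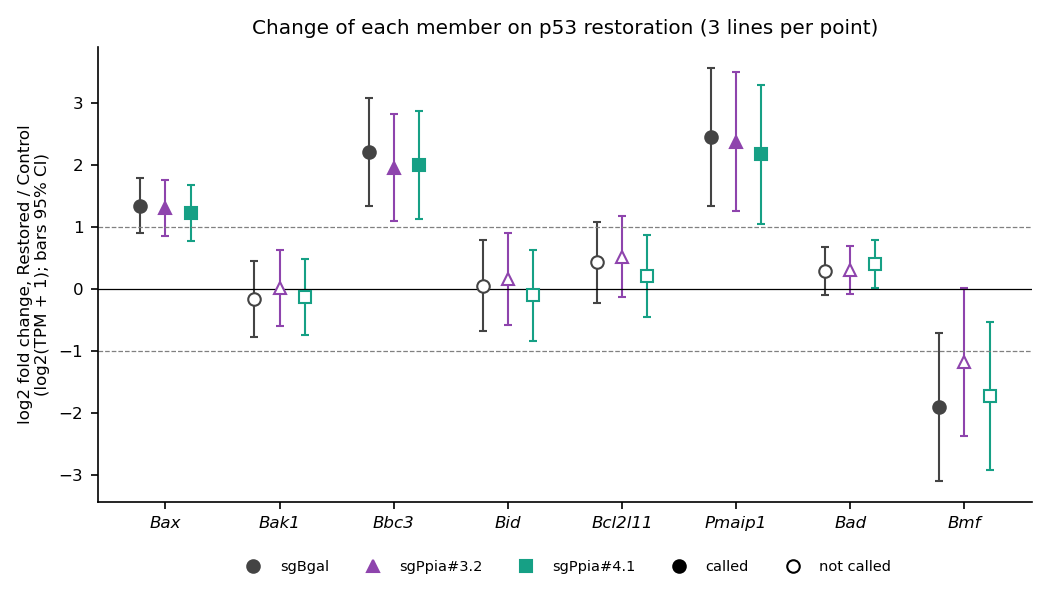
Log2 fold change of Restored over Control (y axis, log2(TPM + 1) scale) for each tested member (x axis) and guide (symbols), from 3 lines each, with 95% confidence intervals as bars and filled symbols for calls. Bax, Bbc3 and Pmaip1 lie above 1 with all guides, Bmf lies below -1 and is filled with sgBgal alone, and the intervals of the other members reach 0 but for that of Bad with sgPpia#4.1.

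Pmaip1, which encodes NOXA, a sensitizer that mainly neutralizes MCL1, had the largest fold change of the family. In sgBgal cells it went from 26.5 to 141 TPM in 4711-1, from 40.5 to 253 TPM in 4711-18 and from 32.3 to 170 TPM in 4716-11. With sgPpia#3.2 the levels were 18.0 to 163, 36.2 to 106 and 30.0 to 172 TPM, and with sgPpia#4.1 they were 12.9 to 42.7, 34.5 to 182 and 36.2 to 209 TPM. The lowest Restored level, 42.7 TPM in 4711-1 with sgPpia#4.1, stood just above the highest Control level of 40.5 TPM, and every other Restored level was at least 106 TPM. The log2 fold change was 2.45 ± 0.52 (SE, n = 3 lines, limma adjusted p = 0.0069) with sgBgal, 2.37 ± 0.52 (adjusted p = 0.0100) with sgPpia#3.2 and 2.17 ± 0.52 (adjusted p = 0.0160) with sgPpia#4.1. Without the 4711-1 population the last value was 2.43 (adjusted p = 0.0012), and without the 4711-18 population the value with sgPpia#3.2 was 2.79 (adjusted p = 0.0293). Pmaip1 ranked 112, 104 and 124 by fold change.

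Bad, a sensitizer that 14-3-3 proteins hold in the cytosol when it is phosphorylated, was slightly higher in every Restored sample than in its Control. The levels were 65.2 and 84.9 TPM in 4711-1, 56.3 and 69.0 TPM in 4711-18 and 68.6 and 79.8 TPM in 4716-11 with sgBgal, and over all guides Control ran from 53.1 to 79.7 TPM and Restored from 69.0 to 95.8 TPM. The ranges overlapped because 4711-18 was low in both states. The log2 fold changes of 0.29, 0.30 and 0.40 (SE 0.18) were not called (limma adjusted p = 0.31, 0.34 and 0.19). With the replicate block the adjusted p values of Bad were 0.0227, 0.0246 and 0.0057, still under the fold required, and after rescaling its log2 changes were 0.08, 0.10 and 0.22.

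Bmf, a sensitizer known for its link to the cytoskeletal motor subunit DYNLL2, was the member that went down. In sgBgal cells it went from 10.2 to 2.15 TPM in 4711-1, from 12.0 to 1.81 TPM in 4711-18 and from 9.48 to 2.27 TPM in 4716-11. With sgPpia#3.2 it went from 4.51 to 2.69, from 20.2 to 8.28 and from 11.1 to 2.57 TPM, and with sgPpia#4.1 from 21.4 to 10.4, from 8.62 to 1.59 and from 15.7 to 2.39 TPM. All 9 populations were lower after restoration, but the Restored levels of 10.4 and 8.28 TPM, in the populations that stood apart, overlapped the Control range. The log2 fold change was -1.91 ± 0.56 (SE, n = 3 lines, limma adjusted p = 0.0345) with sgBgal, which was called, and -1.18 ± 0.56 (adjusted p = 0.22) with sgPpia#3.2 and -1.72 ± 0.56 (adjusted p = 0.0649) with sgPpia#4.1, which were not. With the replicate block the adjusted p values were 0.0169, 0.13 and 0.0317, so Bmf was then called with sgPpia#4.1 too. It was also called with sgPpia#4.1 after median-of-ratios rescaling (-1.86, limma adjusted p = 0.0431), without the 4711-1 population (-2.10, adjusted p = 0.0341) and without the 4711-18 population (-1.72, adjusted p = 0.0366). With sgPpia#3.2 it was not called without the 4711-18 population (-1.17, adjusted p = 0.31) or after rescaling (-1.35, adjusted p = 0.14). In sgBgal cells the call of Bmf was lost without any one of the lines (adjusted p = 0.0568 to 0.22) and with no filter on low genes (adjusted p = 0.0674). Bmf ranked 12705, 12604 and 12684 of 12828 by fold change.

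The populations with the smallest change were the same for Bbc3 and Pmaip1. Among the 9 differences of log2(TPM + 1), those of Bbc3 were smallest in 4711-18 with sgPpia#3.2 (0.93) and 4711-1 with sgPpia#4.1 (1.23), and those of Pmaip1 in the same populations (1.53 and 1.65). In the other 7 populations they ran from 2.07 to 2.66 for Bbc3 and from 2.36 to 3.11 for Pmaip1. Bax did not follow this order, at 1.38 and 1.60 in these 2 populations. Trp53 itself was at 181 and 200 TPM in their Restored samples, the lowest of the 9, and Cdkn1a was at 369 TPM in the Control sample of the first. Their part in the result was not tested.

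**Figure D3:**
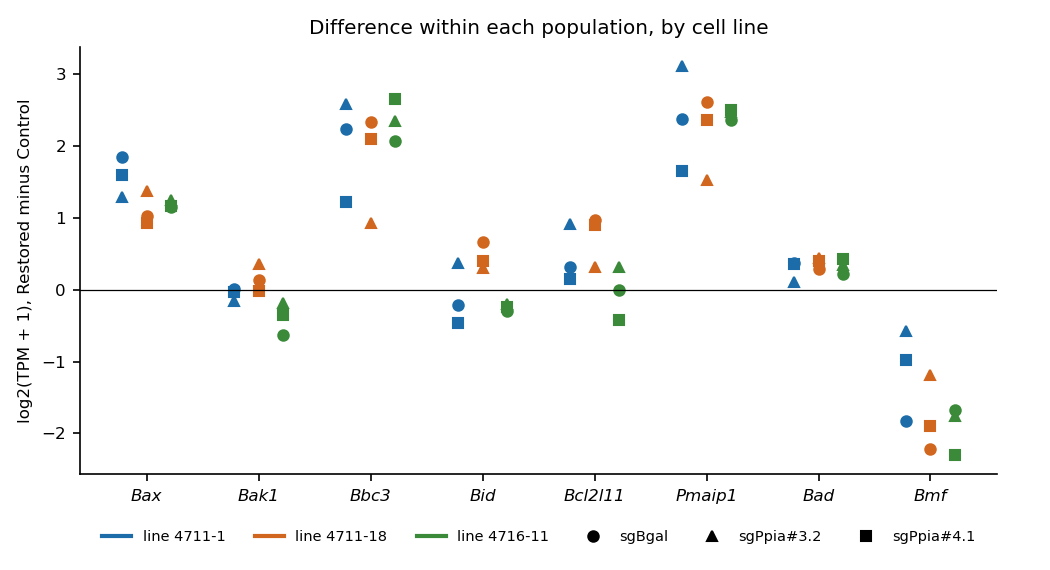
Difference of log2(TPM + 1), Restored minus Control (y axis), of each tested member (x axis) in each of the 9 populations, with colors for cell lines and symbols for guides. Bid lies above 0 in all 3 populations of 4711-18 and below 0 in all 3 of 4716-11, and the smallest differences of Bbc3 and Pmaip1 are in 4711-18 with sgPpia#3.2 and 4711-1 with sgPpia#4.1.

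Bik and Hrk, both sensitizers with expression restricted to few tissues, were close to 0 throughout. Bik had at most 0.25 TPM and was listed at 0 in 9 of 18 samples, and Hrk had at most 0.06 TPM. Neither was tested, and no direction can be read at this depth.

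Ordered by median level, Control samples ran from Bax (479 TPM) through Bak1 (74.1), Bad (68.4), Bid (36.7), Pmaip1 (32.3), Bbc3 (16.6) and Bmf (11.1) to Bcl2l11 (9.22 TPM), all on the TPM scale. Neighbors were not well separated for Bak1 and Bad or for Bmf and Bcl2l11, where the first exceeded the second in 6 of 9 samples, or for Bid and Pmaip1 or Pmaip1 and Bbc3, with 7 of 9. In Restored samples the order was Bax (1069 TPM), Pmaip1 (170), Bad (84.9), Bbc3 (75.1), Bak1 (66.7), Bid (35.8), Bcl2l11 (11.9) and Bmf (2.39 TPM). Here Bad exceeded Bbc3 in 5 of 9 samples and Bbc3 exceeded Bak1 in 7 of 9, whereas Pmaip1 exceeded Bad in 8 of 9. Pmaip1 thus moved from the fifth to the second place and Bmf from the seventh to the eighth.

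None of the members was called between guides, and several of the largest differences changed without the populations that stood apart. In Control cells the log2 difference from sgBgal ranged from -0.38 (Bid) to 0.17 (Bbc3) with sgPpia#3.2 and from -0.35 (Pmaip1) to 0.41 (Bmf) with sgPpia#4.1. In Restored cells it ranged from -0.34 (Pmaip1) to 0.69 (Bmf) and from -0.62 (Pmaip1) to 0.60 (Bmf). Without the 4711-18 population the sgPpia#3.2 range was -0.56 (Bid) to 0.23 (Bad) in Control cells, with Bbc3 at -0.42, and -0.53 (Bid) to 0.24 (Bmf) in Restored cells, with Pmaip1 at -0.12. Without the 4711-1 population the sgPpia#4.1 range was -0.31 (Bcl2l11) to 0.44 (Bax) in Control cells, with Pmaip1 at 0.11 and Bmf at 0.14. In Restored cells it was then -0.495 (Bcl2l11) to 0.34 (Bbc3), with Pmaip1 at 0.10 and Bmf at -0.05, and still no member was called. With all populations the smallest unadjusted limma p of a member was 0.23, or 0.10 with the replicate block. With rescaling and the block together it was 0.0271, for Bad with sgPpia#4.1 in Restored cells (log2 difference 0.24, limma adjusted p = 1). Of all genes 0% were called without the block. With it Ppia (-1.51, limma adjusted p = 0.0015) and Muc1, a mucin named only because these were the calls (-1.08, adjusted p = 0.0381), were called lower with sgPpia#3.2 in Control cells (0.0156% of all genes), and Ppia alone in Restored cells (-1.13, adjusted p = 0.0431, 0.0078%). With sgPpia#4.1 the count with the block was 0 in both states, with 162 and 424 genes at an unadjusted p under 0.05. Without the block, at an unadjusted p under 0.05 there were 311 and 154 genes with sgPpia#3.2 in Control and Restored cells and 27 and 68 with sgPpia#4.1. The 95% confidence intervals of the members in Restored cells reached from -1.46 to 1.89 with sgPpia#3.2 and from -1.74 to 1.79 with sgPpia#4.1, so the intervals still held differences of more than 2-fold in single members.

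The change on restoration was also compared between guides, as an interaction. For sgPpia#3.2 against sgBgal it ranged from -0.26 (Bbc3, SE 0.57) to 0.73 (Bmf, SE 0.79), and for sgPpia#4.1 from -0.28 (Pmaip1, SE 0.74) to 0.18 (Bmf, SE 0.79). Without the 4711-18 population the first range was -0.08 (Bax) to 0.74 (Bmf), with Bbc3 at 0.25, and without the 4711-1 population the second was -0.30 (Bax) to 0.17 (Bbc3), with Pmaip1 at -0.02 and Bmf at -0.19. None of the 8 members was called in these fits. With all populations 0% of all genes were called, with or without the block, and without it there were 31 and 18 genes at an unadjusted p under 0.05 (175 and 80 with it). The call of Bmf with sgBgal and its absence with sgPpia#3.2 are therefore not shown to differ.

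The prosurvival relatives were examined as the counterpart. Of the 8 listed, 4 reached the level for testing and none was called with any guide. Of all genes 5.46%, 4.44% and 4.3% were called higher and 2.17%, 1.31% and 1.79% lower, so 0 of 4 is near that share. Bcl2l1, which encodes BCL-XL, ran from 67.1 to 115 TPM in Control and from 116 to 245 TPM in Restored samples, with log2 fold changes of 0.77, 0.91 and 0.97 (limma adjusted p = 0.11, 0.0681 and 0.0529). Mcl1 ran from 92.1 to 193 TPM and from 120 to 242 TPM (0.32, 0.51 and 0.40), and Bcl2l2 from 7.45 to 17.8 TPM and from 9.40 to 34.5 TPM. On TPM without rescaling these 3 genes were higher in 9 of 9 populations without passing the test. Their smallest differences of log2(TPM + 1) were 0.51 (Bcl2l1), 0.24 (Mcl1) and 0.05 (Bcl2l2). Bcl2 stayed between 2.72 and 7.34 TPM, and Bcl2a1a, Bcl2a1b, Bcl2a1d and Bcl2l10 had at most 0.47 TPM. The median log2 fold change of the 4 genes was 0.41, 0.53 and 0.56, beside 0.19, 0.17 and 0.15 over all genes.

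Summed mRNA puts both sides on one scale, though mRNA does not give protein. Bax and Bak1 together ranged from 354 to 696 TPM in Control and from 1049 to 1230 TPM in Restored samples, and the 8 prosurvival genes from 172 to 307 and from 254 to 480 TPM. Both sums were higher after restoration in 9 of 9 populations. The effector sum leaves out Bok, an effector-like relative that was lower in 9 of 9 populations. The ratio below was not computed with Bok. The ratio of the effector to the prosurvival sum ranged from 1.15 to 3.30 (median 2.02) in Control and from 2.37 to 4.76 (median 3.05) in Restored samples, and was higher in 9 of 9 populations. Its rise was smallest in 4711-18, where it went from 2.01 to 2.37 with sgBgal, from 2.02 to 2.56 with sgPpia#3.2 and from 2.78 to 2.80 with sgPpia#4.1. The line 4716-11 had the lowest prosurvival sums and the highest Restored ratios, 3.98 to 4.76. The ratio of the BH3-only to the prosurvival sum ranged from 0.54 to 1.08 in Control and from 0.66 to 1.70 in Restored samples and was higher in 7 of 9 populations. The exceptions were 4711-1 with sgPpia#4.1 (0.74 to 0.66) and 4711-18 with sgPpia#3.2 (0.81 to 0.70).

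**Figure D4:**
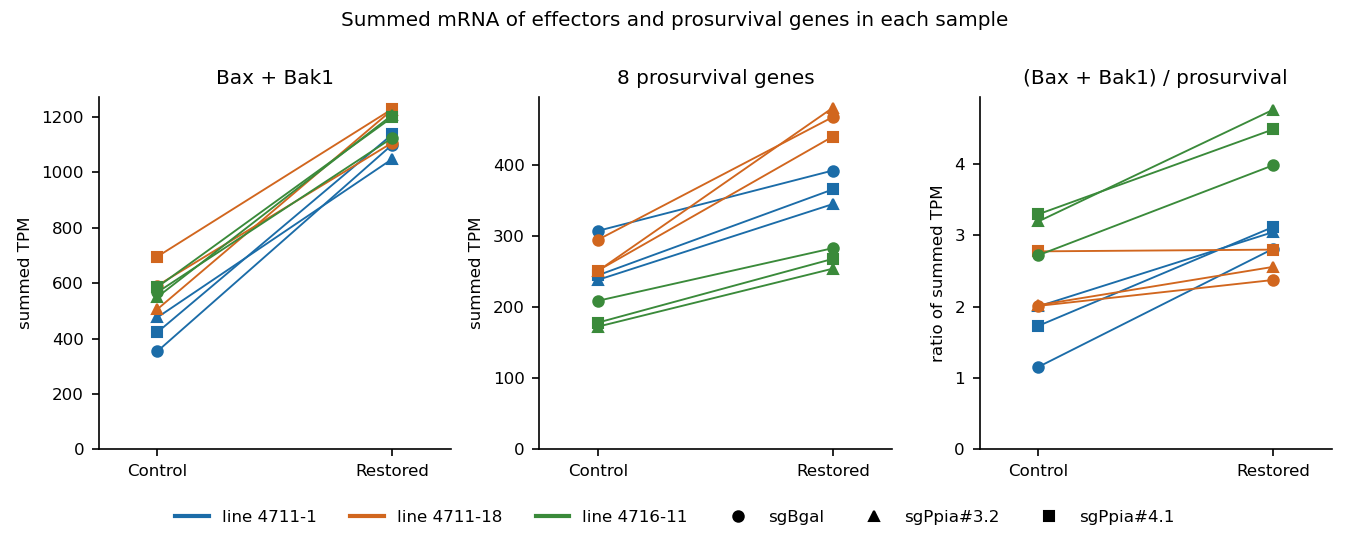
Summed TPM of Bax and Bak1 (left), summed TPM of the 8 prosurvival genes (middle) and their ratio (right) in Control and Restored samples, with lines joining the samples of a population, colors for cell lines and symbols for guides. The effector sums do not overlap between states, and the ratio moves least in the 3 populations of 4711-18.

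Downstream of the mitochondrion, 2 of 11 genes were called higher with every guide, against 5.46%, 4.44% and 4.3% of all genes, and none lower. Apaf1, the scaffold of the apoptosome, ranged from 3.74 to 9.61 TPM in Control and from 21.5 to 49.1 TPM in Restored samples (log2 fold change 2.17 with sgBgal, limma adjusted p = 0.0007). Dffb, which encodes the nuclease that cuts DNA in apoptosis, ranged from 3.10 to 5.98 and from 7.79 to 14.0 TPM (1.29, limma adjusted p = 0.0020). The other 9, among them Cycs and Casp9, were not called. The median log2 fold change over the 11 was 0.04, 0.18 and 0.24 for the 3 guides, beside 0.19, 0.17 and 0.15 over all genes.

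Among 7 more distant relatives none was called in sgBgal cells, where 5.46% of all genes were called higher and 2.17% lower. The most abundant were Bok, an effector-like relative, which ranged from 156 to 281 TPM in Control and from 53.8 to 186 TPM in Restored samples, Bnip3 (59.4 to 488 and 46.7 to 210 TPM) and Bnip3l (32.5 to 129 and 34.5 to 90.7 TPM), both linked to removal of mitochondria. Bok was lower in 9 of 9 populations (log2 fold change -1.03, -1.14 and -0.90) and was called with the replicate block alone, with sgBgal (limma adjusted p = 0.0027) and sgPpia#3.2 (adjusted p = 0.0017). The block called 3.32% and 2.21% of all genes lower with these guides. Bcl2l14 was called lower with sgPpia#4.1 (-1.07, limma adjusted p = 0.0132), against 1.79% of all genes. None of 11 partners of the members was called with any guide. At most 5.46% of all genes were called higher and 2.17% lower, so a count of 0 is near that share. The most abundant were the 14-3-3 genes Ywhae, Ywhah and Ywhaz, with log2 fold changes of -0.35, 0.08 and -0.19 in sgBgal cells. Dynll2, the partner of BMF, had log2 fold changes of 0.67, 0.83 and 0.70 (limma adjusted p = 0.0113, 0.0036 and 0.0103), under the fold required for a call.

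Of the transcription factor genes reported upstream of members, 7 of 9 were tested and Trp53 alone was called, by 4.63, 4.83 and 4.73 on the log2 scale, which is the manipulation itself. Of all genes 5.46%, 4.44% and 4.3% were called higher with the 3 guides. Foxo3 was called higher with the replicate block alone, with sgBgal (1.13, limma adjusted p = 0.0110) and sgPpia#4.1 (1.10, adjusted p = 0.0152), where the block called 7.7% and 6.26% of all genes higher. Restored 4711-18 cells had the highest levels of Foxo3 (40.9 to 77.7 TPM). Of 10 reference p53 targets 9 were called higher with every guide, all but Btg2, against 5.46%, 4.44% and 4.3% of all genes. Their log2 fold changes in sgBgal cells ran from 2.14 (Aen) to 4.35 (Cdkn1a), with 4.13 for Mdm2, and Btg2 had 1.46 (limma adjusted p = 0.15). Pmaip1 (2.45) and Bbc3 (2.21) had values within those of the 10 targets, and Bax (1.34) had a value below them.

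**Figure D5:**
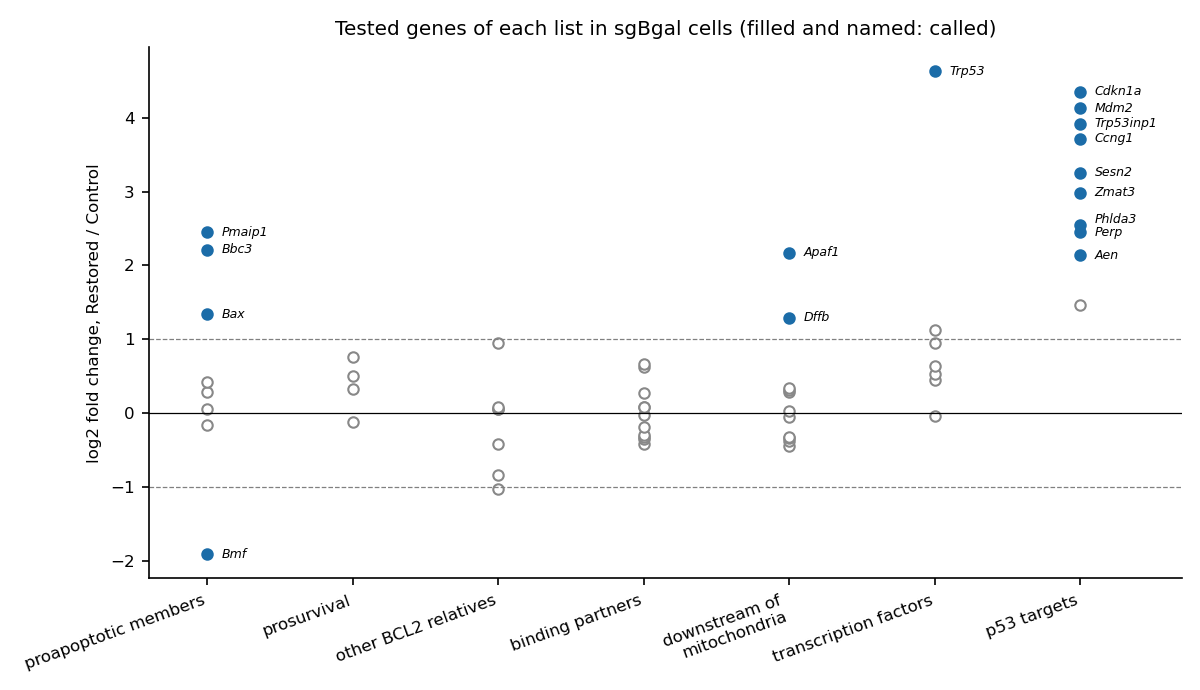
Log2 fold change of Restored over Control in sgBgal cells (y axis) of the tested genes of each list (x axis), with called genes filled and named. Called genes are 9 of the 10 reference p53 targets, 4 of 8 proapoptotic members, 2 of 11 genes acting downstream of mitochondria and 0 of 4 prosurvival genes, where 5.46% of all genes are called higher and 2.17% lower.

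The genes whose pattern over the 18 samples was most like that of a called member were taken by Pearson's r on log2(TPM + 1), as a description. For Bbc3 these were Arap1 (r = 0.981), Cdkn1a (0.979) and Nat9 (0.975). For Pmaip1 they were Ikbke (0.962), Msh6 (0.962) and Rbm38 (0.958), and for Bax they were Rps27l (0.968), Cdc34 (0.966) and Cltb (0.965). The 18 points share 3 lines and mostly reflect the step from Control to Restored.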

How the data were processed

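RNA was extracted from 18 samples, and libraries were made with NEBNext Ultra II reagents and sequenced. The authors deposited TPM for 25239 genes, 1 column per sample. The methods name Kallisto or HISAT2 for alignment without saying which served these samples, and the submitters' processing notes name bcl2fastq 2.17 and both mm10 and GRCm39, so no gene coordinates are taken from the table. TPM keep no read total, so intervals for counting error could not be given. Relative depth was read from the steps between low values.

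Conditions were taken from the sample labels. Levels were transformed to log2(TPM + 1) and fitted in limma 3.58.1 under R 4.3.3, with moderated variances and 1 mean per condition over all samples, for genes reaching 1 TPM in 3 or more samples. The calls followed the study's thresholds. Same-numbered samples come from the same cell line, and their deviations from the condition means correlated (mean r 0.729, lowest 0.58, over 45 pairs), so the cell line was also fitted as a replicate block. Tested on simulated data for the sgBgal comparison, with 200 of 12828 genes changed by 2 on the log2 scale, the fit recovered 85% of them with 0 false calls, and 95.5% with 3 false calls with the block. Smaller changes, such as those between guides, were not simulated, so these shares do not describe how well they would be found. No 2 samples were duplicates (highest r 0.9954). Promoter windows came from RefSeq (GRCm38.p6). No window was used for Pmaip1 or Bik.

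The members and gene lists were chosen with earlier results of these data known. All members are named. From each list the genes called in sgBgal cells, or else the 3 most abundant, are named, with Trp53, Ppia and Cdkn1a as checks. Foxo3, Bcl2l14, Dynll2, Btg2 and the low prosurvival genes were named after their values were seen, as were the markers singled out. Some listed genes are not reported here. Alternatives were a pseudocount of 0.1, other filters, median-of-ratios rescaling, the block, the compared groups alone, trended robust eBayes, no minimum fold and leaving out each line. Leaving out the populations that stood apart, rescaling with the block, and leaving out lines with the block were added after seeing the data.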

Additional observations from a re-analysis of the deposited data

Results flagged for a closer look

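Bid changed in opposite directions in 2 lines on restoration of p53. The difference of log2(TPM + 1), Restored minus Control, was positive in all 3 populations of 4711-18 (mean 0.453 ± 0.186, SD) and negative in all 3 of 4716-11 (mean -0.249 ± 0.0458, SD), a gap of 0.702. The populations of a line share their origin and are not replicates, and the difference between the lines was not tested. After median-of-ratios rescaling, which lowers Restored values against Control, the fitted change of Bid was below 0 with all guides.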

How the results depend on the processing

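Depth is unknown, each condition has 3 lines, and a call required a log2 fold change of at least 1. Leaving out each line, without the block, gave 1 to 3 members called in sgBgal cells (4 in the reported fit), 0 to 2 with sgPpia#3.2 (3) and 0 to 4 with sgPpia#4.1 (3), the lowest without 4716-11. These fits rest on 2 lines per condition. All other alternatives left the number of members called within 1.5 times the reported one, and the number called between guides and in the interaction at 0. Under the replicate block 4, 3 and 4 members were called, 3 of them higher with each guide, where 7.7%, 6.4% and 6.26% of all genes were called higher and 3.32%, 2.21% and 2.92% lower. Over 51 fits each, Bax was called in 49, Bbc3 in 46 and Pmaip1 in 44, with log2 fold changes of 1.04 to 1.499, 1.64 to 2.46 and 1.997 to 2.79. In the fit of the compared groups alone, Bbc3 with sgPpia#3.2 (adjusted p = 0.0941) and Pmaip1 with sgPpia#4.1 (adjusted p = 0.16) were not called.

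On restoration, sign changes were seen for uncalled members only. Median-of-ratios rescaling, with or without the block, gave -0.163 for Bid with sgBgal, -0.0413 for Bid with sgPpia#3.2 and -0.193 for Bak1 with sgPpia#3.2, which follows from the shift of the median of all genes. Leaving out 1 line, with or without the block, moved Bak1 between -0.306 and 0.0753 with sgBgal and between -0.171 and 0.104 with sgPpia#3.2. It moved Bid between -0.251 and 0.228 with sgBgal and between -0.355 and 0.0739 with sgPpia#4.1, and Bcl2l11 between -0.133 and 0.527 with sgPpia#4.1. Without the populations that stood apart, Bak1 with sgPpia#3.2 was -0.171 and Bid with sgPpia#4.1 was 0.0739.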
